A study of Mus musculus with 6 samples.

Results

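In suspensions of sorted mouse bone marrow cells, 1497 of 44399 cells that passed quality filters carried at least 5 MHC class II transcripts and few or no transcripts that mark plasmacytoid dendritic, B, T or Gata3-positive cells. These cells were proposed as a class II high conventional dendritic lineage, and they are called class II gate cells here. A cell had to have at least 500 genes, 1000 unique molecular identifiers (UMIs, one per captured transcript) and at most 10% mitochondrially encoded UMIs. It then needed at least 5 UMIs of H2-Aa, H2-Ab1 and H2-Eb1 together, at most 1 of Siglech, at most 1 of Cd79a and Cd79b, at most 2 of Cd3d, Cd3e and Cd3g, and 0 of Gata3. The class II threshold left 2795 barcodes, the Siglech limit 1936, the Cd79 limit 1602, the Cd3 limit 1601 and the Gata3 limit 1497.

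The cells came from 3 Txnip-KO and 3 WT samples of bone marrow, profiled with a droplet method that counts transcripts from their 3' ends. The labels give the genotypes as Txnip-KO and wildtype and state no age, sex, strain, allele or treatment, and they do not name the population that was sorted. They also do not say whether the knockout acts in all cells or whether each sample is a separate animal, so the p-values measure the spread between these samples, which may be technical. Txnip-KO samples 1, 2 and 3 held 200, 221 and 356 class II gate cells among 6379, 8439 and 8234 cells kept. WT samples 1, 2 and 3 held 220, 263 and 237 among 6569, 7509 and 7269.

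MHC class II molecules are pairs of alpha and beta chains that carry peptides from engulfed proteins to the cell surface for inspection by CD4+ T cells. The invariant chain Cd74 escorts new pairs, H2-DM loads the peptide, and the transactivator Ciita switches the whole gene group on through factors that sit on short promoter boxes. In marrow these genes are high in dendritic cells and B cells and are also read in some monocytes and early progenitors. Txnip encodes thioredoxin-interacting protein, an arrestin relative that binds thioredoxin and lowers glucose uptake, and its transcription is driven by the sugar-sensing factors MondoA and ChREBP.

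Promoters of 3 class II genes are shown because these genes are switched on through shared boxes. Each runs from 250 bases before to 50 bases after the gene's start in RefSeq on GRCm38.p6, and 3 of the 4 class II genes looked for were in the table. H2-Aa lies at chr17:34287774-34288073 on the minus strand, H2-Eb1 at chr17:34305617-34305916 and H2-DMb1 at chr17:34152941-34153240, both on the plus strand. Capitals mark the Y box core ATTGG, the cyclic AMP response element TGACGTCA, and AACTGATGATGCT, the longest run shared by the H2-Eb1 and H2-DMb1 windows.
H2-Aa: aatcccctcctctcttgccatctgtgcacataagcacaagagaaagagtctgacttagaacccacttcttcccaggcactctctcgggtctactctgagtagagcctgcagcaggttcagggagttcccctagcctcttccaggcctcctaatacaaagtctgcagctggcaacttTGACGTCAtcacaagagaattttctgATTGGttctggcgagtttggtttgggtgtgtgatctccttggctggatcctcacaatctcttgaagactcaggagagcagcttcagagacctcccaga
H2-Eb1: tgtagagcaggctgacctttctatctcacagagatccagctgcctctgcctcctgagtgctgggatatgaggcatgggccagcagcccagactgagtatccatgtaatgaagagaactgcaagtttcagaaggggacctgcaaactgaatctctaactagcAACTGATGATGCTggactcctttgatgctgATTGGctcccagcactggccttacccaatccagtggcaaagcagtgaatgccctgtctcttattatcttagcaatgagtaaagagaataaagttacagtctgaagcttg
H2-DMb1: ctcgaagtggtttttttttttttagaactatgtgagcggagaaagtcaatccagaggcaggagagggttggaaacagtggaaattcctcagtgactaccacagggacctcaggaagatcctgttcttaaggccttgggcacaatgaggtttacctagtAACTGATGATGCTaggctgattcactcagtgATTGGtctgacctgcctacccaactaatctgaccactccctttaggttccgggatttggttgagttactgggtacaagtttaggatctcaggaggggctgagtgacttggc
Counted from -1 for the base before the start, ATTGG begins at -48 in H2-Aa, -59 in H2-Eb1 and -61 in H2-DMb1. H2-Eb1 also holds it on the other strand at -35, left in lower case. TGACGTCA, which reads the same on both strands, begins at -74 in H2-Aa, and AACTGATGATGCT at -89 in H2-Eb1 and -92 in H2-DMb1. Of 32817 promoter windows of this length, searched on both strands, 37.4% hold ATTGG, 1.79% hold TGACGTCA and 3 windows (0.00914%) hold AACTGATGATGCT. These matches describe the letters of the windows only.

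Marker genes showed that the class II gate cells are a mixture. By raw UMIs of genes outside the rule, 735 cells (49.1%) carried at least 2 UMIs of Cd209a, Clec10a and Mgl2, lectins of type 2 conventional dendritic cells, and are called the Cd209a gate. Another 508 cells (33.9%) had at least 2 UMIs of Kit and Cd34, receptors and surface markers of progenitors, and are called the Kit and Cd34 gate. Another 61 cells (4.07%) passed for Xcr1 and Clec9a, markers of type 1 conventional dendritic cells, and are called the Clec9a gate. A further 52 (3.47%) passed for the monocyte genes Csf1r, Ly6c2 and Fn1, 6 (0.401%) for B lineage genes, and 135 (9.02%) for none. The gates were assigned in the order Clec9a, Cd209a, Kit and Cd34, B lineage and monocyte, each cell taking the first that it passed. A Clec9a gate cell also needed more UMIs of Xcr1 and Clec9a than of the Cd209a gate genes. In a clustering of the class II gate cells, a cluster of 164 had 10 of 11 type 1 markers raised. Among them were 46 Clec9a gate cells, 44 Cd209a gate cells and 49 of no gate. The Clec9a gate therefore held only part of this cluster, and the Cd209a gate is not free of it. Another cluster of 74 had 7 of 11 natural killer or innate lymphoid markers raised, with 35 marked as doublets. In a cluster of 85 led by Car1, 58 were marked as doublets.

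The amount of class II separated the gates. Class II UMIs per cell ran from 5 through a median of 31 to 554, with a median of 82 in the Cd209a gate, 134 in the Clec9a gate and 7 in the Kit and Cd34 gate. Among the 497 cells with 5 to 9 class II UMIs, 78.9% were in the Kit and Cd34 gate and 8.05% in the Cd209a gate, whereas the 638 cells with 50 or more were 2.66% and 79.5%. The 304 cells just inside the threshold, with 5 or 6 UMIs, had 81.2% in the Kit and Cd34 gate, and the 1091 cells just outside it, with 3 or 4 UMIs, had 87.9%. The threshold therefore cut through a run of Kit and Cd34 cells with low class II.

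**Figure D1:**
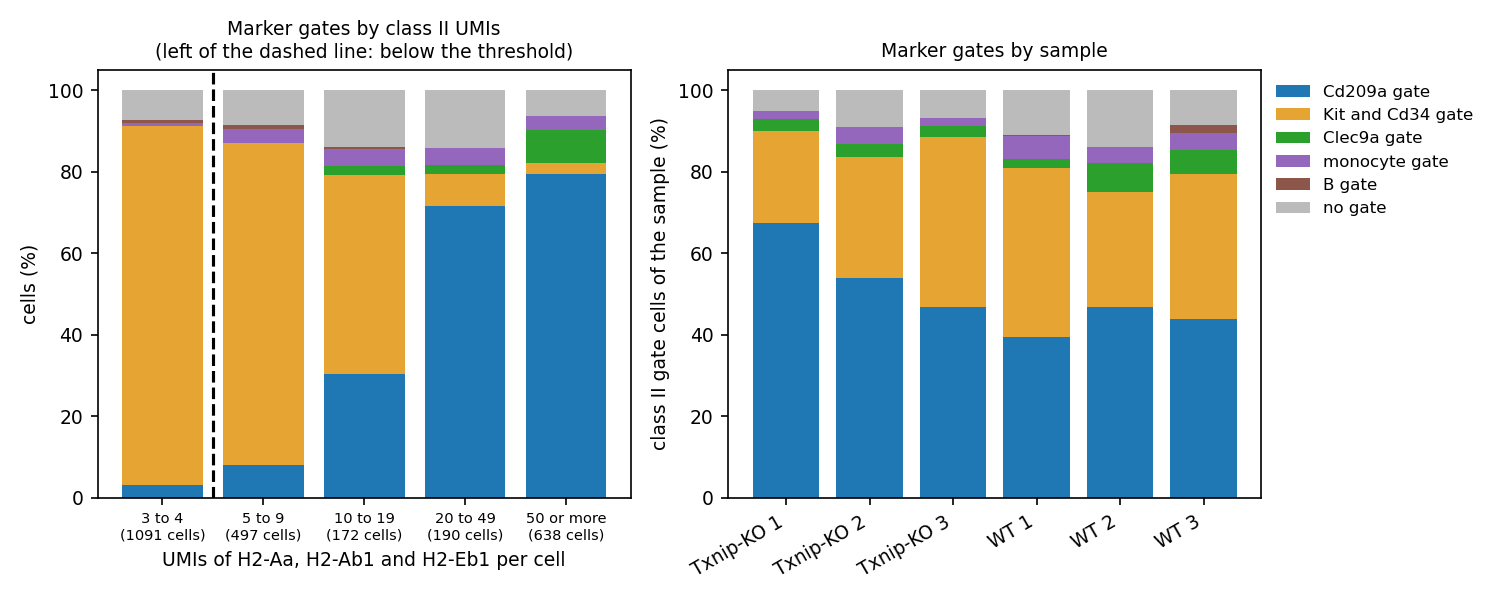
Share of cells (%) in each marker gate, by UMIs of H2-Aa, H2-Ab1 and H2-Eb1 per cell (left; the bar left of the dashed line lies below the class II threshold) and by sample (right). The Cd209a gate makes up 8.05% of cells with 5 to 9 class II UMIs and 79.5% of those with 50 or more, and 46.9% to 67.5% of class II gate cells in the Txnip-KO samples and 39.5% to 46.8% in the WT samples.

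The dendritic label held in part. All 4 of its markers (Cd74, H2-Aa, H2-Ab1 and Batf3) were at least 2-fold higher in the class II gate cells than in the other cells kept, though the rule chose cells on class II itself. Batf3, a transcription factor of dendritic cells outside the rule, was at 48.2 ± 8.21 CPM in the class II gate cells and 1.48 ± 0.473 CPM in the other cells (CPM, the UMIs of a gene scaled to the same total in every sample; mean ± SD over 6 samples). Zbtb46, a transcription factor of conventional dendritic cells, was at 14.8 ± 3.62 CPM in the Cd209a gate, 35.7 ± 14.5 CPM in the Clec9a gate and 2.12 ± 1.67 CPM in the Kit and Cd34 gate, against 1.01 ± 0.221 CPM in the other cells. Over all class II gate cells, 0 of 8 markers of conventional dendritic cells in general were at least 2-fold above the other cells. For type 1 and type 2 markers it was 3 of 11 and 4 of 11. In the Kit and Cd34 gate it was 0 for each of these lists, and Batf3 was not 2-fold higher there.

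Monocyte genes were as prominent as dendritic ones. In the Cd209a gate, 11 of 12 monocyte markers were at least 2-fold above the other cells, including Ccr2, Csf1r, Fn1, Cx3cr1 and Lyz2, beside 5 of 11 markers of type 2 dendritic cells (Cd209a, Clec10a, Sirpa, Irf4 and Itgam) and 3 of 8 markers of conventional dendritic cells in general (Zbtb46, Dpp4 and Kmo). Itgax, the CD11c gene used to gate dendritic cells, was at 7.28 ± 3.48 CPM in the class II gate cells and 11.1 ± 4.12 CPM in the other cells. Lyz2, a lysozyme of monocytes and macrophages, was at 4915 ± 630.4 CPM in the Cd209a gate, 1162 ± 601 CPM in the Clec9a gate and 188 ± 75.8 CPM in the Kit and Cd34 gate (mean ± SD, 6 samples). The cells are therefore described by their genes below, with no cell type name.

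Cd74 ordered the gates by level. It was at 13016 ± 3235 CPM in the Clec9a gate, 10778 ± 1319 CPM in the Cd209a gate, 7301 ± 2821 CPM in the monocyte gate and 433 ± 130.4 CPM in the Kit and Cd34 gate (mean ± SD, 6 samples). The spreads of the first 3 overlap. Outside the class II gate, cells with at least 2 Siglech UMIs, a marker of plasmacytoid dendritic cells, had 648 ± 158 CPM, and cells with at least 2 Csf1r UMIs and less class II had 69.1 ± 22.1 CPM. Levels between gates are a description, because the gates follow the amount of class II.

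The class II gate cells were about as frequent in both genotypes. They made up 3.14%, 2.62% and 4.32% of cells kept in Txnip-KO, against 3.35%, 3.50% and 3.26% in WT, and the Txnip-KO shares spread on both sides of the WT ones. The means were 3.36% ± 0.874 in Txnip-KO and 3.37% ± 0.122 in WT (SD, n = 3 each; two-sided exact permutation p = 1, with 0.1 the smallest that 3 against 3 samples allow). The class II gate cells held fewer UMIs in Txnip-KO, with a median of 8462 ± 939 in Txnip-KO and 9972 ± 211 in WT, and a fixed UMI threshold is harder to reach in a shallower cell. The other cells kept were also shallower in Txnip-KO, with a median of 7886 ± 678 UMIs against 9338 ± 167 in WT. With each cell thinned to 1000 UMIs and a class II sum of at least 1, Txnip-KO exceeded WT by 0.830 percentage points. The groups overlapped, at 6.08%, 6.83% and 9.29% in Txnip-KO against 6.27%, 6.77% and 6.67% in WT (exact permutation p = 0.7).

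Within the class II gate cells the Cd209a gate took 67.5%, 53.8% and 46.9% in Txnip-KO, against 39.5%, 46.8% and 43.9% in WT. Every Txnip-KO sample was above every WT sample, but by as little as 46.9% against 46.8% (56.1% ± 10.5 and 43.4% ± 3.64, exact permutation p = 0.1, adjusted 0.4 over 6 gates). With each cell thinned to 1000 UMIs and gates set at 1 UMI, the shares were 35%, 32.13% and 27.81% in Txnip-KO. In WT they were then 25%, 33.08% and 27.85%, so the groups overlapped (exact permutation p = 0.5). The Kit and Cd34 gate took 22.5%, 29.9% and 41.6% in Txnip-KO, against 41.4%, 28.1% and 35.4% in WT, and the groups overlapped (exact permutation p = 0.8). In counts summed over cells, a different mix of cells and a different level per cell cannot be told apart, so each gate was also fitted on its own, a step added after the first results. The Kit and Cd34 gate is itself a mixture: 191 of its cells sat in a cluster led by Dntt and 162 in one with Hlf, Procr and Mecom. Another 93 sat in a cluster led by S100a9 and S100a8, with Pf4, Ngp, Top2a and Mki67 also among its leading genes. That cluster held 109 cells, 27 of them marked as doublets, with a median of 23354 UMIs. The Dntt cluster held 11, 25 and 68 cells in Txnip-KO and 39, 26 and 34 in WT, and the Hlf cluster 22, 22 and 43, and 33, 22 and 31. Within a gate, mix and level per cell cannot be told apart either. Among the 1497 cells, 1 barcode was shared between libraries over the 15 sample pairs.

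Txnip itself checked the labels. In the class II gate cells it was at 12.5, 20.9 and 0.263 CPM in Txnip-KO, against 316, 241 and 282 CPM in WT, on a scale normalised between samples (TMM, trimmed mean of M values). No Txnip-KO sample came near a WT sample, with replicate 3 at a single UMI and the other Txnip-KO samples above it. The log2 fold change was -4.84 ± 0.53 (± standard error, here and below; edgeR quasi-likelihood test, Benjamini-Hochberg adjusted p = 9.6e-04). Txnip fell in each gate too, by 5.09 in the Cd209a gate and 4.91 in the Kit and Cd34 gate on the log2 scale (edgeR, adjusted p = 8.6e-07 and 1.3e-07). Txnip-KO replicate 3 held no Txnip UMI in the Kit and Cd34 gate, so the fold change there rests on the fit.

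Over all class II gate cells, 501 genes were higher and 550 lower in Txnip-KO than in WT at an adjusted p under 0.05 (edgeR), 4.91% and 5.39% of 10205 genes tested. In the Cd209a gate alone 431 were higher and 546 lower, 5.52% and 7% of 7803. In the Kit and Cd34 gate alone 401 were higher and 385 lower, 4.51% and 4.33% of 8889. These shares of all genes tested are the background for each count of list genes below. Of 7323 genes tested in both gates, 295 were called in both, which is 32.8% of those called in the Cd209a gate and 42.0% of those called in the Kit and Cd34 gate, and 0 of them moved in opposite directions. Every Txnip-KO sum was above every WT sum for 16.8% of genes in all class II gate cells and 15.9% in the Cd209a gate, and below for 17.7% and 16%. The median over all genes tested was 0.02 in the class II gate cells, 0.02 in the Cd209a gate and 0.01 in the Kit and Cd34 gate on the log2 scale. The total for all class II gate cells was 127 without WT replicate 3 and 1768 without Txnip-KO replicate 3; in the Cd209a gate it was 416 without WT replicate 2, and in the Kit and Cd34 gate 222 without that replicate.

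Different clusters hold most Cd209a gate cells of the 2 genotypes. In a clustering of the class II gate cells, 338 of them sat in a cluster with 128, 100 and 127 Txnip-KO cells against 1, 2 and 0 WT cells, led by Vmn2r26, Lifr, Sult1a1 and Ddit4. Another 213 sat in a cluster with 0, 3 and 5 Txnip-KO cells against 64, 93 and 69 WT cells, led by Ifi27l2a and Ms4a4c. Those genes differ between the genotypes, so the sizes of the clusters are not a separate result. Most of the other Cd209a gate cells sat in clusters with cells of every sample. These held 68, 48 and 44 of them, the first with 1, 4 and 10 Txnip-KO cells against 15, 26 and 29 WT cells.

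Cd74, the invariant chain, was modestly higher in Txnip-KO in the Cd209a gate. It was at 11695, 12886 and 11375 CPM in Txnip-KO, against 10188, 9717 and 9678 CPM in WT. All 3 Txnip-KO samples were above all 3 WT samples (edgeR, log2 fold change 0.28 ± 0.05, adjusted p = 0.0025), and the call held with each replicate left out. Cd74 in the Kit and Cd34 gate was at 294, 451 and 370.3 CPM in Txnip-KO, against 322, 618 and 578 CPM in WT, with overlapping groups (log2 fold change -0.44 ± 0.17, adjusted p = 0.12). Over all class II gate cells it was at 8017, 7166 and 5072 CPM in Txnip-KO, against 3961, 5599 and 4864 CPM in WT and also overlapped (log2 fold change 0.49 ± 0.16, adjusted p = 0.066). The difference between the effects in both gates was not called (edgeR interaction, adjusted p = 0.19).

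Of 13 tested genes of the class II pathway, 2 passed the test in the Cd209a gate, both higher: Cd74 and Marchf1, a ubiquitin ligase that removes class II from the surface (log2 fold change 0.48 ± 0.15, adjusted p = 0.043, edgeR). Their median log2 fold change was 0.22, and over all class II gate cells 0 of 13 passed with edgeR, 4 at an unadjusted p under 0.05 and 1 higher with DESeq2's Wald test (which called 3.53% of all genes higher), with a median of 0.17. Marchf1 lost its call without any one replicate but Txnip-KO replicate 3. The peptide-loading genes did not pass in the Cd209a gate: H2-DMa had 595, 711 and 827 CPM in Txnip-KO, against 789, 718 and 767 CPM in WT, and H2-DMb1 had 603, 595 and 615 CPM in Txnip-KO, against 658, 660.3 and 686 CPM in WT, all 3 under WT (log2 fold change -0.14 ± 0.08, adjusted p = 0.27). Ciita, the transactivator, was at 163, 129 and 157 CPM in Txnip-KO, against 138, 113 and 97.8 CPM in WT there, with overlapping groups (log2 fold change 0.38 ± 0.15, adjusted p = 0.11). Of 10 genes in the Kit and Cd34 gate 1 rose, H2-Ob, a chain of the H2-DM inhibitor H2-O (log2 fold change 0.59 ± 0.16, adjusted p = 0.022, lost without any one replicate but Txnip-KO replicate 1), and 1 fell, Ciita. Over all genes tested, 5.52% were higher and 7% lower in the Cd209a gate, and 4.51% and 4.33% in the Kit and Cd34 gate.

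Ciita in the Kit and Cd34 gate was at 5.74, 4.4 and 2.45 CPM in Txnip-KO, against 8.13, 16.2 and 9.77 CPM in WT, the 3 Txnip-KO samples lying under the 3 WT ones (log2 fold change -1.60 ± 0.46, adjusted p = 0.031, edgeR). These are few transcripts, and the call was lost without Txnip-KO replicate 2 or 3 or WT replicate 1 or 2 (log2 fold changes -1.84 to -1.15). The gene had too few counts to test without WT replicate 3. The class II genes that chose the cells are given without a test. H2-Aa had 4112, 4749.8 and 4838 CPM in Txnip-KO, against 4110.4, 3888 and 3726 CPM in WT in the Cd209a gate, where Txnip-KO replicate 1 and WT replicate 1 were level. H2-Ab1 had 2835, 3473 and 3759 CPM in Txnip-KO, against 3537, 3539 and 3424 CPM in WT, and H2-Eb1 2117, 2576 and 2722 CPM in Txnip-KO, against 2284, 2406 and 2263 CPM in WT, both with overlapping groups.

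A set of cells chosen without class II, added after the first results, allowed those genes to be tested. It held the cells with at least 2 Cd209a UMIs that met the Siglech, Cd79, Cd3 and Gata3 limits, 194, 134 and 209 cells in Txnip-KO and 117, 174 and 167 in WT, of which 134, 111 and 156 in Txnip-KO and 84, 121 and 106 in WT were class II gate cells. In this set 16.9% of 8704 genes passed. Cd74 was at 7799, 10740.00 and 8392 CPM in Txnip-KO, against 7106, 6420.2 and 6233 CPM in WT, without overlap (log2 fold change 0.45 ± 0.10, adjusted p = 0.0076, edgeR). H2-Aa was at 2708, 3931 and 3519 CPM in Txnip-KO, against 2806, 2566 and 2433 CPM in WT, where Txnip-KO replicate 1 lay under WT replicate 1 (log2 fold change 0.38 ± 0.11, adjusted p = 0.029). Ciita was at 109.8, 109.7 and 120.3 CPM in Txnip-KO, against 97, 79.5 and 66.8 CPM in WT, without overlap (log2 fold change 0.50 ± 0.14, adjusted p = 0.027).

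Other members of the pathway in these cells were mixed. Marchf1 and Lgmn, a lysosomal protease, passed the test and were higher (edgeR log2 fold changes 0.52 ± 0.12 and 0.81 ± 0.20, adjusted p = 0.011 and 0.013). H2-Eb1 and H2-Ab1 did not pass (log2 fold change 0.27 ± 0.12, adjusted p = 0.14, and log2 fold change 0.11 ± 0.12, adjusted p = 0.57), and in both Txnip-KO replicate 1 was the lowest of the 6 samples. H2-DMa, H2-DMb1 and the protease Ctss had log2 fold changes of -0.08, -0.05 and 0.00. Cd74 lost its call without WT replicate 2 or 3 (0.43 and 0.40), as did Marchf1, Lgmn without WT replicate 2, H2-Aa without Txnip-KO replicate 2 or 3 or WT replicate 2 or 3, and Ciita without Txnip-KO replicate 3 or WT replicate 2 or 3.

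**Figure D2:**
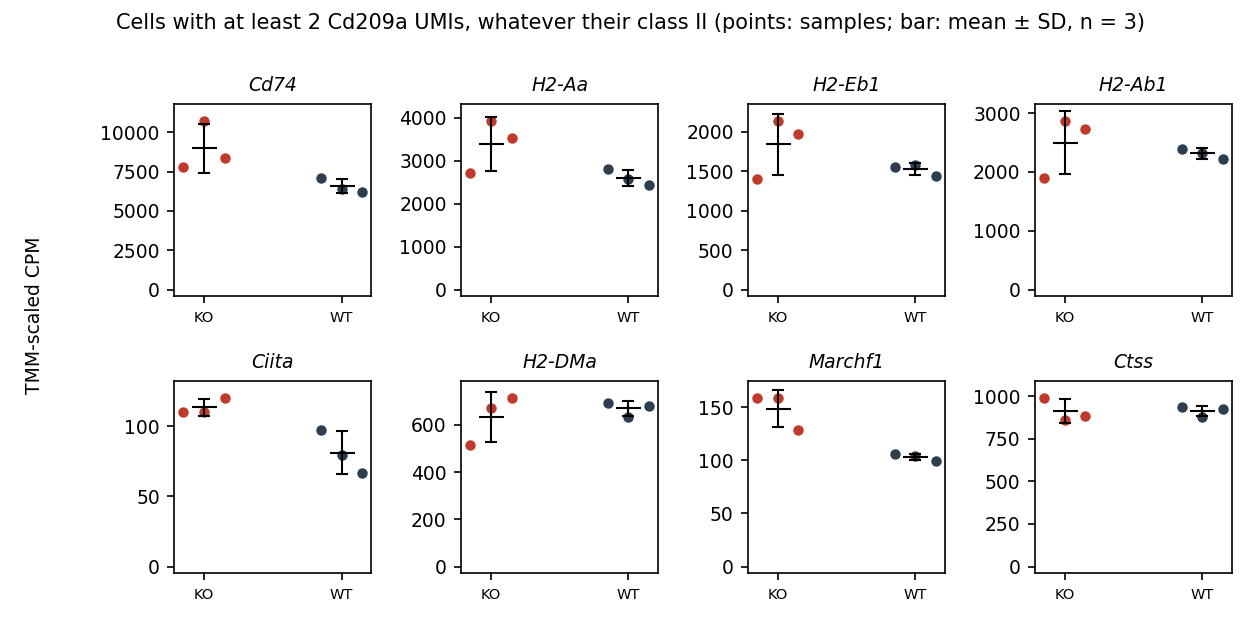
TMM-scaled CPM of 8 class II pathway genes in cells with at least 2 Cd209a UMIs, whatever their class II; points are samples and bars the mean ± SD (n = 3). Cd74, Ciita and Marchf1 lie higher in all 3 Txnip-KO samples than in all 3 WT samples, whereas H2-DMa and Ctss overlap.

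Class I genes moved the other way. Of 15 genes of class I presentation, 7 were lower and 0 higher in the Cd209a gate, with a median log2 fold change of -0.38. They included 3 subunits of the immunoproteasome, which cuts peptides for class I. Psmb10 was at 102, 138 and 117 CPM in Txnip-KO, against 222, 206 and 214 CPM in WT, without overlap (log2 fold change -0.85 ± 0.13, adjusted p = 6.7e-04, edgeR). B2m, the light chain of class I, was at 963, 1003 and 883 CPM in Txnip-KO, against 1246, 1195 and 1264 CPM in WT, also without overlap (log2 fold change -0.38 ± 0.08, adjusted p = 0.0048). Psmb8, Psmb9, Pdia3, Calr and H2-T23 were the others, and of these the calls of Pdia3, Calr and H2-T23 were lost without WT replicate 2 and those of Psmb9, Pdia3 and H2-T23 without WT replicate 3, that of H2-T23 also without Txnip-KO replicate 1 or 3 or WT replicate 1. Of 16 in the Kit and Cd34 gate 2 fell, Psmb10 and Psmb8, with a median of -0.14, beside 4.33% of all genes tested there. Psmb8 lost its call there without any one replicate but Txnip-KO replicate 3. The count in the Cd209a gate was 4 without WT replicate 2 or WT replicate 3.

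Regulators of dendritic development shifted in a few members. Of 23 in the Cd209a gate 4 were higher and 1 lower, beside 5.52% and 7% of all genes tested there. Flt3, the receptor through which Flt3 ligand sustains dendritic cells, was at 238, 173 and 167 CPM in Txnip-KO, against 110.4, 102 and 104 CPM in WT, without overlap (log2 fold change 0.87 ± 0.15, adjusted p = 0.0016, edgeR). Tcf4, the transcription factor of plasmacytoid dendritic cells, was at 177, 138 and 165 CPM in Txnip-KO, against 70.1, 81.7 and 86.7 CPM in WT (log2 fold change 1.0 ± 0.15, adjusted p = 4.5e-04). Id2, a partner protein that antagonises E proteins such as Tcf4, was at 273, 229 and 297 CPM in Txnip-KO, against 122, 139 and 146 CPM in WT (log2 fold change 0.97 ± 0.13, adjusted p = 2.2e-04). Summed over 11 plasmacytoid dendritic markers, Tcf4 among them and Klk1 at 0, the Cd209a gate had 494 to 617 CPM in Txnip-KO and 461 to 483 CPM in WT, without overlap. Summed over 8 markers of conventional dendritic cells in general, which include Flt3 and Id2, it had 684 to 837 CPM in Txnip-KO and 462 to 478 CPM in WT. The part of these markers in the changes of Flt3, Tcf4 and Id2 was not tested.

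Zeb2, a repressor used by type 2 and plasmacytoid dendritic cells, was at 661, 499.9 and 528 CPM in Txnip-KO, against 392, 362 and 322 CPM in WT in the Cd209a gate (log2 fold change 0.66 ± 0.12, adjusted p = 0.0021, edgeR). Notch2, a receptor needed by part of the type 2 dendritic cells, was lower there (log2 fold change -0.45 ± 0.13, adjusted p = 0.037), a call lost without any one replicate. Tcf4 and Zeb2 also rose in the Kit and Cd34 gate (0.48 and 0.80), and the call of Tcf4 there was lost without WT replicate 1 or 2. In that gate 3 of 20 passed, all higher, beside 4.51% of all genes tested there. The lineage factors did not pass in the Cd209a gate. Batf3 had 43.5, 53.6 and 72.9 CPM in Txnip-KO, against 105, 75.3 and 67.3 CPM in WT there, Irf8 had 234, 211 and 446 CPM in Txnip-KO, against 265, 283 and 243 CPM in WT, and Irf4 had 59.8, 40.5 and 38.3 CPM in Txnip-KO, against 62.3, 38 and 36 CPM in WT, all with overlapping groups.

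Pattern and uptake receptors changed in both directions. Of 13 tested in the Cd209a gate 2 were higher and 3 lower, beside 5.52% and 7% of all genes tested there. Mrc1, the mannose receptor, was at 73, 88 and 75.1 CPM in Txnip-KO, against 57.1, 20.2 and 16.6 CPM in WT and Tlr13, a sensor of bacterial ribosomal RNA, at 25.6, 26.3 and 11.6 CPM in Txnip-KO, against 10.4, 3.24 and 2.77 CPM in WT. The genotypes did not overlap for either gene, though the gaps were narrow, from 73 in Txnip-KO against 57.1 in WT for Mrc1 and from 11.6 in Txnip-KO against 10.4 in WT for Tlr13 (log2 fold change 1.42 ± 0.31, adjusted p = 0.0072, and log2 fold change 2.05 ± 0.47, adjusted p = 0.011, edgeR), and both lost their call without WT replicate 2 or 3. The signalling adaptors Fcer1g and Tyrobp and the lectin Clec4a3 were lower (log2 fold changes -0.46 ± 0.06, -0.34 ± 0.07 and -0.77 ± 0.16). Of 23 activation and co-stimulation genes only 8 had enough counts to test, and 1 rose, the NF-kappaB inhibitor Nfkbia (log2 fold change 0.65 ± 0.14, adjusted p = 0.0066). Nfkbia and Clec4a3 lost their calls without WT replicate 2. Summed over 9 macrophage markers, Mrc1 among them, the Cd209a gate had 116 to 128 CPM in Txnip-KO and 52.6 to 81.3 CPM in WT. The part of these markers in the change of Mrc1 was not tested.

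Several targets of MondoA and ChREBP other than Txnip rose in both gates. The list also holds the factors themselves (Mlxip and Mlxipl), their partner Mlx, glucose transporters and Hk2. Of 11 list genes tested in each gate, 5 were higher in the Cd209a gate and 4 in the Kit and Cd34 gate. Txnip was lower in both, as was Hk2 in the Kit and Cd34 gate. Arrdc4, a close relative of Txnip that also lowers glucose uptake, was at 43, 45.1 and 34.8 CPM in Txnip-KO, against 3.39, 5.66 and 4.51 CPM in WT in the Kit and Cd34 gate (log2 fold change 3.13 ± 0.30, adjusted p = 7.4e-07, edgeR). In the Cd209a gate it was at 89.3, 97.1 and 96.7 CPM in Txnip-KO, against 35.1, 22.7 and 35 CPM in WT (log2 fold change 1.63 ± 0.19, adjusted p = 7.7e-05). In both gates all Txnip-KO samples were above all WT samples, and the WT level was lower in the Kit and Cd34 gate.

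Klf10, a transcription factor induced by growth-restraining signals, was at 85.4, 87 and 96 CPM in Txnip-KO, against 44.1, 26.7 and 24 CPM in WT in the Cd209a gate (log2 fold change 1.55 ± 0.21, adjusted p = 2.3e-04, edgeR). Pfkfb3, which makes the activator of phosphofructokinase, was at 57.4, 41.5 and 46.2 CPM in Txnip-KO, against 15.6, 11.3 and 15.7 CPM in WT (log2 fold change 1.79 ± 0.24, adjusted p = 1.9e-04). Klf11 also rose in both gates (log2 fold changes 2.28 in the Cd209a gate and 1.61 in the Kit and Cd34 gate, the second lost without any one replicate but WT replicate 1). The median of the list was 1.11 in the Cd209a gate and 0.46 in the Kit and Cd34 gate, on 11 genes each, Txnip, Mlxip and Mlx among them. Hk2, a hexokinase, fell in the Kit and Cd34 gate (log2 fold change -1.16 ± 0.29, adjusted p = 0.016), a call lost without Txnip-KO replicate 1 or WT replicate 2.

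Genes of glycolysis itself mostly did not pass. In the Cd209a gate 2 of 17 were higher, beside 5.52% of all genes tested there, with a median of 0.06. In the Kit and Cd34 gate 1 of 19 was higher and 3 lower, beside 4.51% and 4.33%, with a median of -0.16. Pdk1, the kinase that holds pyruvate out of mitochondria, rose in both (log2 fold change 1.46 ± 0.33, adjusted p = 0.0089, and log2 fold change 0.63 ± 0.18, adjusted p = 0.034, edgeR). Eno1, enolase, was at 169, 188 and 144 CPM in Txnip-KO, against 110.4, 97.9 and 73.8 CPM in WT in the Cd209a gate, without overlap (log2 fold change 0.83 ± 0.16, adjusted p = 0.0035). It was at 58.8, 78.1 and 59.8 CPM in Txnip-KO, against 73.2, 69.6 and 53.3 CPM in WT in the Kit and Cd34 gate, with overlap. Aldoc, an aldolase, fell in the Kit and Cd34 gate (log2 fold change -1.96 ± 0.45, adjusted p = 0.0091). Without WT replicate 1 or 2 Aldoc lost its call there, and Pdk1 without Txnip-KO replicate 2 or WT replicate 2 or 3.

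Most cholesterol synthesis genes fell. Of 17 tested, 15 were lower and 0 higher in the Cd209a gate, with a median log2 fold change of -1.71. Idi1, which isomerises isopentenyl diphosphate, was at 2.33, 0 and 2.17 CPM in Txnip-KO, against 40.2, 45.3 and 42.4 CPM in WT (log2 fold change -4.62 ± 0.39, adjusted p = 3.3e-06, edgeR). Txnip-KO replicate 2 held no Idi1 UMI in this gate and the other 2 a few each, so the fold change rests on the fit. Fdps, the next enzyme of the pathway, was at 10.1, 20.2 and 23.8 CPM in Txnip-KO, against 106, 103 and 71.9 CPM in WT (log2 fold change -2.37 ± 0.26, adjusted p = 3.4e-05). For both genes the groups were far apart.

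Cyp51, Msmo1 and Sqle, enzymes of the later steps, and Srebf2, the factor that switches the pathway on, also fell in the Cd209a gate (Srebf2 log2 fold change -0.57 ± 0.18, adjusted p = 0.048, edgeR, lost without any one replicate). Of 16 in the Kit and Cd34 gate 5 were lower and 0 higher, with a median of -0.70. Fdps had 12.9, 24.2 and 21.1 CPM in Txnip-KO, against 53.5, 80.1 and 44.3 CPM in WT there (log2 fold change -1.55 ± 0.24, adjusted p = 4.0e-04), and Idi1 17.2, 20.9 and 16.7 CPM in Txnip-KO, against 54.2, 50.2 and 36.8 CPM in WT (log2 fold change -1.39 ± 0.23, adjusted p = 6.1e-04). The Kit and Cd34 count was 3 without WT replicate 1 or WT replicate 2, and the Cd209a count 10 to 15 over the left-out replicates.

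A gene of ketone use fell and a gene of fatty acid entry rose. Oxct1, the enzyme that lets a cell burn ketone bodies, was at 8.54, 17.2 and 10.1 CPM in Txnip-KO, against 85.7, 85 and 66.4 CPM in WT in the Cd209a gate (log2 fold change -2.76 ± 0.24, adjusted p = 4.8e-06, edgeR) and at 33, 34.1 and 21.6 CPM in Txnip-KO, against 126, 108 and 110.4 CPM in WT in the Kit and Cd34 gate (log2 fold change -2.05 ± 0.18, adjusted p = 2.9e-07). Cpt1a, the gate for long-chain fatty acids into mitochondria, was at 94.7, 83 and 80.9 CPM in Txnip-KO, against 45.4, 34.8 and 52.6 CPM in WT in the Cd209a gate (log2 fold change 0.97 ± 0.18, adjusted p = 0.0033). Neither gene overlapped between the genotypes in either gate. Acat1, which acts after Oxct1, fell in both gates (-0.74 in the Cd209a gate and -0.53 in the Kit and Cd34 gate, the second lost without Txnip-KO replicate 1 or 2 or WT replicate 1 or 2). Slc25a20, the carnitine carrier that works with Cpt1a, rose in the Cd209a gate (log2 fold change 1.48 ± 0.29, adjusted p = 0.0043). Of the whole list, 2 of 14 were higher and 3 lower in the Cd209a gate, beside 5.52% and 7% of all genes tested there. In the Kit and Cd34 gate 2 of 16 were higher and 2 lower, beside 4.51% and 4.33%.

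Respiratory chain genes fell by small amounts together. Of 30 genes, 17 were lower and 0 higher in the Cd209a gate, with a median of -0.45, and in the Kit and Cd34 gate 10 of 30 were lower and 0 higher, with a median of -0.28. Ndufs8, a subunit of complex I, was at 108, 114 and 89.5 CPM in Txnip-KO, against 177, 209 and 161 CPM in WT in the Cd209a gate (log2 fold change -0.82 ± 0.14, adjusted p = 0.0017, edgeR). Atp5o, a stalk subunit of ATP synthase, was at 165, 216 and 181 CPM in Txnip-KO, against 310.3, 315 and 298 CPM in WT (log2 fold change -0.72 ± 0.12, adjusted p = 0.0011). Cycs, cytochrome c, fell in the Kit and Cd34 gate (log2 fold change -0.69 ± 0.14, adjusted p = 0.0036) and did not pass in the Cd209a gate. The counts were 10 and 11 in the Cd209a gate without WT replicate 2 and WT replicate 3, and 3 in the Kit and Cd34 gate without WT replicate 1 or WT replicate 2. The share of mitochondrially encoded UMIs in the class II gate cells was 3.24% ± 0.0877 in Txnip-KO and 2.88% ± 0.172 in WT (SD, n = 3 each, exact permutation p = 0.1, the smallest possible).

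Among thioredoxin and antioxidant genes, the binding partner of Txnip was itself lower. Txn1, thioredoxin, was at 407, 418 and 499 CPM in Txnip-KO, against 626, 595 and 569 CPM in WT in the Kit and Cd34 gate (log2 fold change -0.42 ± 0.11, adjusted p = 0.016, edgeR), without overlap, and passed in the Cd209a gate too (log2 fold change -0.49 ± 0.15, adjusted p = 0.043), where it lost its call without Txnip-KO replicate 1 or any WT replicate. The call in the Kit and Cd34 gate was lost without Txnip-KO replicate 2 or WT replicate 1 or 2. Gsr, glutathione reductase, was at 143, 77.9 and 89.5 CPM in Txnip-KO, against 31.2, 38 and 41.5 CPM in WT in the Cd209a gate (log2 fold change 1.48 ± 0.23, adjusted p = 6.9e-04) and did not pass in the Kit and Cd34 gate (log2 fold change 0.17 ± 0.19, adjusted p = 0.61). Prdx4 and Gpx1, peroxidases, fell in the Cd209a gate (log2 fold changes -0.997 and -0.45). The list had 1 of 20 higher and 3 lower in the Cd209a gate, beside 5.52% and 7% of all genes tested there. In the Kit and Cd34 gate it had 0 higher and 3 of 20 lower, beside 4.51% and 4.33%.

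**Figure D3:**
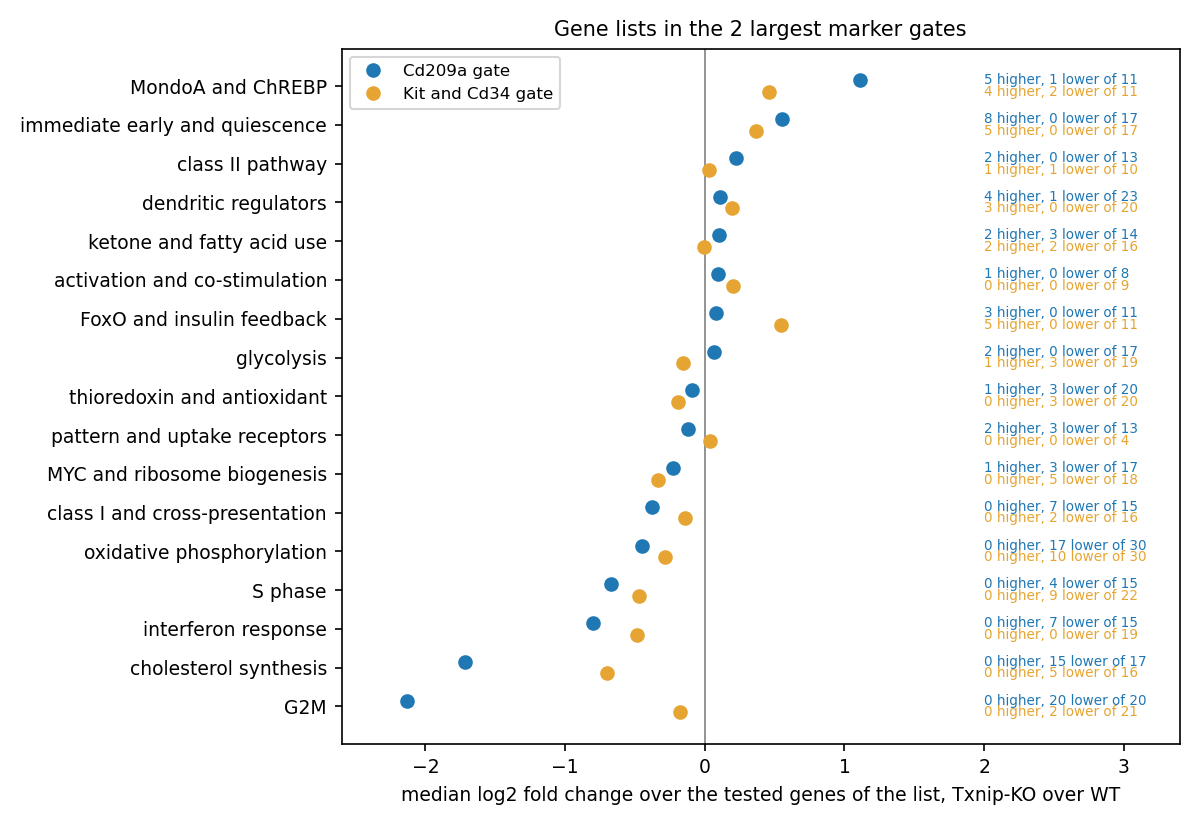
Median log2 fold change (Txnip-KO over WT) over the tested genes of each of 17 gene lists, in the Cd209a gate (blue) and the Kit and Cd34 gate (orange), with the number of genes higher and lower at an adjusted p under 0.05. The G2M list stands at -2.13 in the Cd209a gate and -0.17 in the Kit and Cd34 gate, and cholesterol synthesis at -1.71 and -0.70.

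Cell division genes fell throughout the list in the Cd209a gate, and 2 of them passed in the Kit and Cd34 gate. All 20 tested genes of the G2M list, which marks cells about to divide, were lower in the Cd209a gate, with a median log2 fold change of -2.13, against 2 of 21 with a median of -0.17 in the Kit and Cd34 gate. Lower genes made up 7% of all genes tested in the Cd209a gate and 4.33% in the Kit and Cd34 gate. Birc5, a subunit of the complex that controls chromosome segregation, was at 3.88, 27.3 and 31 CPM in Txnip-KO, against 79.2, 118 and 104 CPM in WT in the Cd209a gate (log2 fold change -2.30 ± 0.36, adjusted p = 7.3e-04, edgeR) and at 94.7, 64.9 and 78 CPM in Txnip-KO, against 105, 123 and 116 CPM in WT in the Kit and Cd34 gate (log2 fold change -0.55 ± 0.15, adjusted p = 0.026), where the call was lost without Txnip-KO replicate 2 or WT replicate 2 or 3. Ube2c, which hands ubiquitin to the anaphase complex, was at 17.1, 53.6 and 31 CPM in Txnip-KO, against 174, 228 and 155 CPM in WT in the Cd209a gate (log2 fold change -2.50 ± 0.26, adjusted p = 2.2e-05). Mki67 was at 10.9, 39.5 and 26.7 CPM in Txnip-KO, against 72.7, 144 and 74.7 CPM in WT there (log2 fold change -1.98 ± 0.34, adjusted p = 0.0014). Txnip-KO replicate 1 was the lowest sample for all 3 genes in the Cd209a gate. The count in the Cd209a gate was 11 without WT replicate 2.

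DNA replication genes fell in both gates. In the Kit and Cd34 gate 9 of 22 were lower, with a median of -0.47, and in the Cd209a gate 4 of 15, with a median of -0.67. Pcna, the sliding clamp of DNA polymerase, was at 182, 209 and 185 CPM in Txnip-KO, against 281, 342 and 285 CPM in WT in the Kit and Cd34 gate (log2 fold change -0.66 ± 0.12, adjusted p = 0.0018, edgeR). Mcm5, a subunit of the replicative helicase, was at 3.88, 11.1 and 8.66 CPM in Txnip-KO, against 24.7, 32.4 and 38.7 CPM in WT in the Cd209a gate (log2 fold change -2.06 ± 0.33, adjusted p = 7.8e-04). The counts were as low as 3 in the Kit and Cd34 gate without WT replicate 1, and 1 in the Cd209a gate without Txnip-KO replicate 1 or WT replicate 3. In the cells chosen by Cd209a without class II, 18 of 22 replication genes and 18 of 21 G2M genes were lower, beside 799 of all 8704 genes tested there.

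The same difference appeared in the share of cells. After thinning each cell to 1000 UMIs, 0.741%, 9.24% and 4.19% of Cd209a gate cells in Txnip-KO held at least 2 UMIs of the 21 G2M genes, against 9.20%, 16.3% and 14.4% in WT. The highest Txnip-KO sample lay just above the lowest WT sample, so the groups overlapped narrowly (4.73% ± 4.28 in Txnip-KO and 13.3% ± 3.67 in WT, SD, n = 3 each). In the Kit and Cd34 gate the shares were 20%, 16.7% and 20.9% in Txnip-KO and 18.7%, 24.3% and 23.8% in WT, with overlap. Without thinning the means were 33.5% ± 4.24 in Txnip-KO and 47.0% ± 6.99 in WT in the Cd209a gate. These shares restate the summed genes and carry no test of their own.

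**Figure D4:**
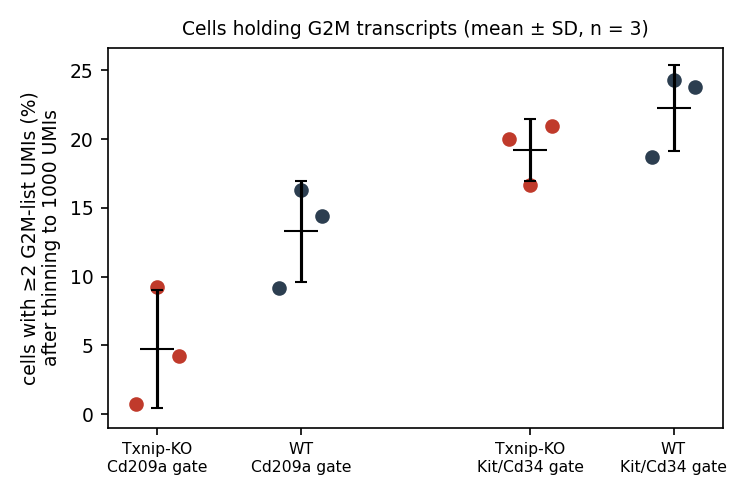
Share of cells (%) with at least 2 UMIs of the 21 G2M genes after thinning to 1000 UMIs per cell, by genotype and gate; points are samples and bars the mean ± SD (n = 3). In the Cd209a gate the Txnip-KO samples sit at 0.741% to 9.24% and the WT samples at 9.20% to 16.3%, a narrow overlap. The genotypes also overlap in the Kit and Cd34 gate.

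Growth genes driven by MYC fell in part. In the Kit and Cd34 gate 5 of 18 were lower and 0 higher (median -0.34), beside 4.33% and 4.51% of all genes tested there. In the Cd209a gate 3 of 17 were lower and 1 higher (median -0.23), beside 7% and 5.52%. Eif4a1, a helicase of translation initiation, was at 377, 411 and 417 CPM in Txnip-KO, against 706, 655 and 632 CPM in WT in the Cd209a gate (log2 fold change -0.72 ± 0.09, adjusted p = 1.5e-04, edgeR), without overlap, and fell in the Kit and Cd34 gate too (-0.58). Nme1 and Nme2, neighbouring and nearly identical nucleoside kinases whose reads may be split between them, fell in both gates (-0.84 and -0.82 in the Cd209a gate). Polr1a, the large subunit of RNA polymerase I, was the one that rose in the Cd209a gate, a call lost without Txnip-KO replicate 1 or WT replicate 1 or 2.

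Interferon response genes were lower in the Cd209a gate. There 7 of 15 fell and 0 rose, with a median of -0.80, while 0 of 19 passed in the Kit and Cd34 gate with edgeR or with DESeq2's Wald test, and 8 had an unadjusted edgeR p under 0.05 (median -0.48). Ifi27l2a, an interferon-induced mitochondrial protein, was at 260.04, 426 and 267 CPM in Txnip-KO, against 1228, 1129 and 892 CPM in WT in the Cd209a gate (log2 fold change -1.78 ± 0.16, adjusted p = 5.5e-06). Isg15, an interferon-induced ubiquitin-like modifier, was at 5.43, 9.11 and 7.94 CPM in Txnip-KO, against 41.5, 37.2 and 24 CPM in WT (log2 fold change -2.18 ± 0.31, adjusted p = 3.4e-04). For both the genotypes were well apart. Isg15 in the Kit and Cd34 gate was at 14.3, 9.9 and 8.83 CPM in Txnip-KO, against 23.7, 16.2 and 15 CPM in WT, also without overlap but not past the threshold (log2 fold change -0.84 ± 0.31, adjusted p = 0.098). The Cd209a count ran from 4 without WT replicate 2 to 10 without Txnip-KO replicate 3.

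Of the list of immediate early and quiescence genes 8 of 17 were higher in the Cd209a gate and 5 of 17 in the Kit and Cd34 gate, with 0 lower in either (medians 0.56 and 0.37). Jun, Junb and Jund, immediate early factors of the AP-1 complex, were among those higher in the Cd209a gate, and Jun was also higher in the Kit and Cd34 gate. Without WT replicate 2 or 3, among others, Jun, Junb, Jund and Btg1 lost their calls in the Cd209a gate, as did Jun in the Kit and Cd34 gate. Ddit4, Tsc22d3, Zfp36l1 and Zfp36l2 were the others in the Cd209a gate. Ddit4, an inhibitor of mTORC1, was at 264, 247 and 139 CPM in Txnip-KO, against 24.7, 28.3 and 67.3 CPM in WT in the Cd209a gate (log2 fold change 2.40 ± 0.30, adjusted p = 1.2e-04, edgeR). Tsc22d3, the glucocorticoid-induced leucine zipper, was at 441, 544 and 379 CPM in Txnip-KO, against 129, 130.3 and 270.2 CPM in WT (log2 fold change 1.35 ± 0.22, adjusted p = 9.1e-04). Both were higher in every Txnip-KO sample, and WT replicate 3 was the highest WT sample for each.

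Zfp36l2, a protein that destabilises messenger RNA, was at 742, 623 and 669 CPM in Txnip-KO, against 382, 429.7 and 431 CPM in WT in the Cd209a gate, without overlap (log2 fold change 0.71 ± 0.10, adjusted p = 2.6e-04, edgeR). Of the FoxO and insulin feedback list 3 of 11 rose in the Cd209a gate and 5 of 11 in the Kit and Cd34 gate, with 0 lower. Pik3ip1, an inhibitor of PI3 kinase, was at 151, 114 and 80.4 CPM in Txnip-KO, against 44.1, 36.4 and 53.3 CPM in WT in the Kit and Cd34 gate (log2 fold change 1.30 ± 0.20, adjusted p = 3.5e-04) and at 63.7, 50.6 and 33.9 CPM in Txnip-KO, against 6.49, 10.5 and 12.9 CPM in WT in the Cd209a gate (log2 fold change 2.24 ± 0.30, adjusted p = 2.2e-04). Insr, the insulin receptor, and Rictor, a subunit of mTORC2, also rose in both gates, with calls lost in either gate without WT replicate 2, among others. Without WT replicate 2, 1 gene of the FoxO list passed in each gate, as in the Kit and Cd34 gate without Txnip-KO replicate 1.

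Some of the largest rises over all class II gate cells were in genes outside the lists. Vmn2r26, a pheromone receptor gene, was at 99, 36.8 and 10.8 CPM in Txnip-KO, against 0.375, 0.329 and 2.05 CPM in WT (log2 fold change 5.59 ± 0.97, adjusted p = 0.0081, edgeR). Sult1a1, a sulfotransferase, was at 151, 66.6 and 67.3 CPM in Txnip-KO, against 9.74, 9.54 and 6.14 CPM in WT (log2 fold change 3.47 ± 0.35, adjusted p = 6.1e-04). Lifr, the receptor of leukaemia inhibitory factor, was at 99.96, 31.2 and 21.3 CPM in Txnip-KO, against 4.12, 6.58 and 3.75 CPM in WT (log2 fold change 3.33 ± 0.59, adjusted p = 0.0087). In each the Txnip-KO samples were apart from WT, with replicate 1 the highest, and in the Kit and Cd34 gate these genes had too few counts to test. Vmn2r26 lost its call without WT replicate 2 or 3, and Lifr without WT replicate 3.

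Fgfr1, a fibroblast growth factor receptor, and Klf9, a transcription factor induced by glucocorticoids, rose as well (2.91 ± 0.41 and 2.52 ± 0.44, that of Klf9 lost without WT replicate 3). Polr3gl, a subunit of RNA polymerase III, is the next gene after Txnip in RefSeq order. It was at 273, 206 and 86.2 CPM in Txnip-KO, against 30, 23.3 and 35.5 CPM in WT (log2 fold change 2.65 ± 0.35, adjusted p = 0.0025, edgeR), and Txnip-KO replicate 3 was the lowest of its group, as it was for Txnip. A neighbouring gene can be read differently when a locus is altered, and the part of the altered locus was not tested.

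Lars2, Spp1, Ass1 and Sdf2l1 were among the genes with large falls over all class II gate cells. Lars2, the mitochondrial leucyl-tRNA synthetase, was at 122, 93.1 and 82.2 CPM in Txnip-KO, against 428, 306 and 387 CPM in WT (log2 fold change -1.92 ± 0.17, adjusted p = 2.1e-04, edgeR). Ass1, an enzyme of arginine synthesis, was at 15.7, 27.9 and 22.6 CPM in Txnip-KO, against 67.5, 77.6 and 71.3 CPM in WT (log2 fold change -1.70 ± 0.18, adjusted p = 6.3e-04). Spp1, osteopontin, was at 1.39, 7.45 and 2.1 CPM in Txnip-KO, against 9.74, 18.1 and 24.9 CPM in WT (log2 fold change -2.37 ± 0.49, adjusted p = 0.017). Sdf2l1, a chaperone partner in the endoplasmic reticulum, had a log2 fold change of -1.62 ± 0.23. The groups were separate for all 4, and Spp1 lost its call without WT replicate 2 or 3.

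Granule and calprotectin genes of neutrophils were among the largest rises. S100a9 was at 181, 75.9 and 365 CPM in Txnip-KO, against 4.87, 5.59 and 13.3 CPM in WT in the class II gate cells (log2 fold change 4.71 ± 0.55, adjusted p = 0.0015, edgeR), and Camp, an antimicrobial peptide, at 50.9, 31.2 and 37.3 CPM in Txnip-KO, against 1.12, 0.329 and 1.02 CPM in WT (log2 fold change 5.54 ± 0.36, adjusted p = 4.4e-05). Ltf, lactoferrin, had 72, 51 and 56 UMIs in Txnip-KO, against 0, 0 and 1 in WT. A summed level of 8 neutrophil markers was 561, 214 and 826 CPM in Txnip-KO, against 8.63, 15.6 and 29.9 CPM in WT. Of the S100a8 and S100a9 UMIs in Txnip-KO class II gate cells, 88.9%, 94.7% and 96.1% lay in the 5 cells of each sample with the most. With doublets removed S100a9 and S100a8 no longer passed (log2 fold changes 1.92 and 1.40, adjusted p = 0.051 and 0.11). Over the other cells kept, the same sum was 7936, 509 and 2576 CPM in Txnip-KO and 847, 2116 and 1691 CPM in WT.

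Erythroid markers also differed, at 152 to 295 CPM in Txnip-KO and 88.0 to 119 CPM in WT for the 6 genes summed, while the summed monocyte, plasmacytoid dendritic, stem cell, T and B markers overlapped between the genotypes over all class II gate cells. Summed macrophage markers were at 49.7 to 82.2 CPM in Txnip-KO and 29.9 to 39.0 CPM in WT, and those of conventional dendritic cells in general at 568 to 777 CPM in Txnip-KO and 418 to 543 CPM in WT. In the Cd209a gate neutrophil markers (414 to 875 CPM in Txnip-KO and 6.35 to 19.8 CPM in WT) and B markers (20.4 to 22.9 CPM in Txnip-KO and 23.02 to 33.5 CPM in WT) did not overlap either, whereas erythroid markers did. In the Kit and Cd34 gate the markers without overlap included erythroid (245 to 460.3 CPM in Txnip-KO and 128 to 227 CPM in WT), stem and progenitor (1078 to 1366 CPM in Txnip-KO and 955 to 1059 CPM in WT) and macrophage ones (4.42 to 9.48 CPM in Txnip-KO and 12.9 to 16.4 CPM in WT). Over all class II gate cells, the sum of 7 genes of mature dendritic cells was 17.9 to 29.3 CPM in Txnip-KO and 30.2 to 135 CPM in WT. Within the Cd209a gate and within the Kit and Cd34 gate this sum overlapped between the genotypes. The part of these marker transcripts in the other changes was not tested. Without doublets the Cd209a gate had 15 of 17 cholesterol genes, 17 of 30 respiratory genes and 14 of 15 tested G2M genes lower. Of all 6908 genes tested there, 576 were lower.

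The genotype effect was compared directly between the Cd209a gate and the Kit and Cd34 gate, with the sample as a block. Of 9408 genes, 9 differed (0.0957%, edgeR interaction), 3 with a more positive and 6 with a more negative effect in the Cd209a gate. Fkbp5, a glucocorticoid-induced co-chaperone, had 211, 152 and 67.2 CPM in Txnip-KO, against 9.89, 9.71 and 8.13 CPM in WT, in the Cd209a gate, and 59.5, 63.5 and 43.9 CPM in Txnip-KO, against 27.9, 48.3 and 32.7 CPM in WT, in the Kit and Cd34 gate (difference of log2 fold changes 3.22 ± 0.36, adjusted p = 7.6e-04). Its WT level was the lower one in the Cd209a gate, and its Txnip-KO level the higher one.

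Mki67 had 11.9, 42.9 and 29.2 CPM in Txnip-KO, against 79.1, 157 and 82.3 CPM in WT, in the Cd209a gate, and 256, 193 and 215 CPM in Txnip-KO, against 125, 229.9 and 192 CPM in WT, in the Kit and Cd34 gate (-2.22 ± 0.34, adjusted p = 0.02, edgeR interaction). Aspm, Ube2c and Hmgb2, also genes of dividing cells, had differences of -3.49, -2.20 and -0.997. Tmsb10, a small actin-binding protein, had 3307, 4553 and 5506 CPM in Txnip-KO, against 8779, 9231 and 10170.00 CPM in WT, in the Cd209a gate, and 1389, 1617 and 1597 CPM in Txnip-KO, against 1371, 1760.4 and 1849 CPM in WT, in the Kit and Cd34 gate (-0.99 ± 0.11, adjusted p = 7.6e-04). Idi1 was more strongly lower in the Cd209a gate (-3.27 ± 0.55, adjusted p = 0.032), and Polr3gl and Pdcd4, an inhibitor of translation, more strongly higher (1.31 and 0.83). The number of such genes ran from 2 without WT replicate 2 to 64 without Txnip-KO replicate 2.

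**Figure D5:**
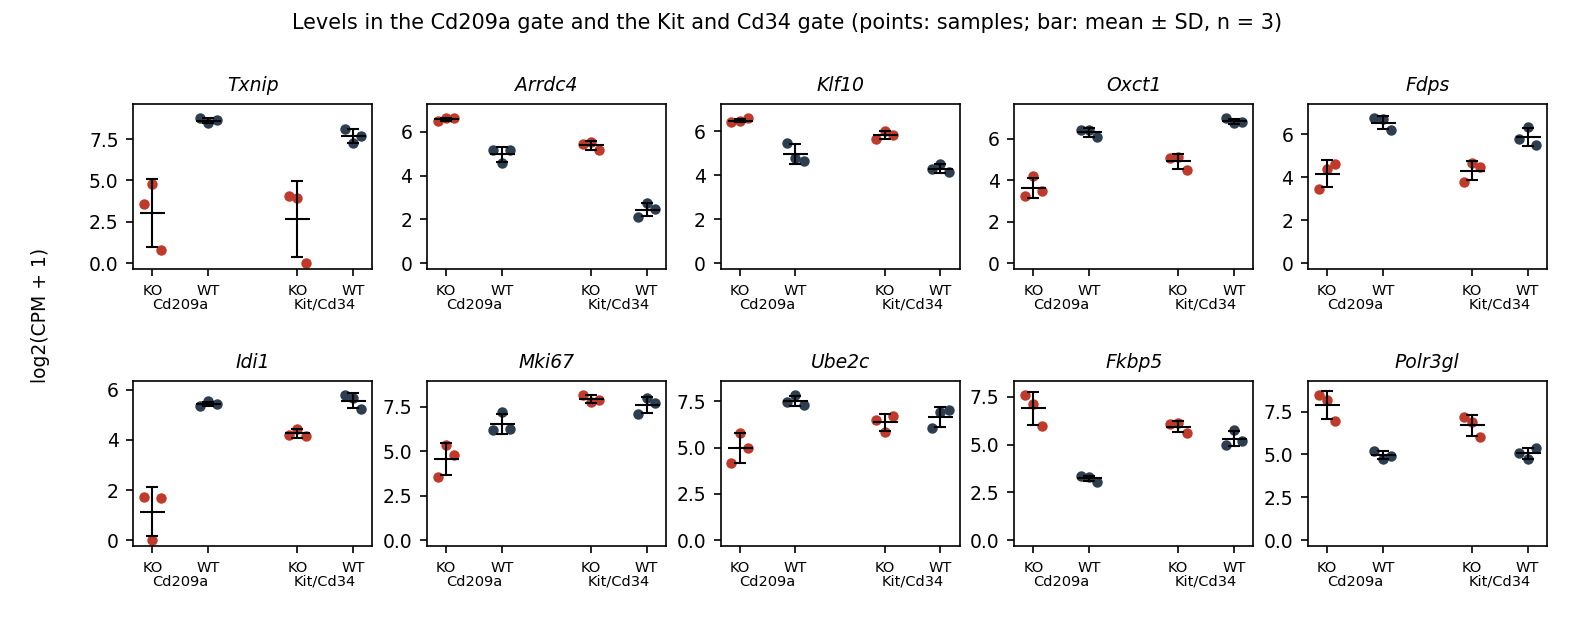
Levels of 10 genes on a log2(CPM + 1) scale in the Cd209a gate and the Kit and Cd34 gate, Txnip-KO (red) left of WT (dark blue); points are samples and bars the mean ± SD (n = 3). Txnip, Oxct1 and Fdps are lower and Arrdc4 and Klf10 higher in Txnip-KO in both gates, whereas Mki67 is lower in all Txnip-KO samples of the Cd209a gate and overlaps in the Kit and Cd34 gate.

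Against all other cells kept, the genotype effect of the class II gate cells differed for 48 of 14303 genes (0.336%, edgeR interaction with the sample as a block). For 3 genes described above the difference was not called: Arrdc4 had -0.38 ± 0.19, adjusted p = 0.7, Oxct1 -0.35 ± 0.13, adjusted p = 0.52 and Lars2 0.22 ± 0.10, adjusted p = 0.68. Lifr had 105, 32.2 and 21.9 CPM in Txnip-KO, against 4.28, 7.07 and 3.98 CPM in WT, in the class II gate cells, and 15.1, 6.71 and 10.1 CPM in Txnip-KO, against 7.22, 9.09 and 10.7 CPM in WT, in the other cells (2.92 ± 0.42, adjusted p = 0.0095). Spp1 had 1.46, 7.69 and 2.16 CPM in Txnip-KO, against 10.1, 19.5 and 26.4 CPM in WT, in the class II gate cells, and 2.88, 15.1 and 4.02 CPM in Txnip-KO, against 3.86, 5.75 and 2.9 CPM in WT, in the other cells (-3.13 ± 0.46, adjusted p = 0.0095). Hlf, a transcription factor of stem cells, had 123, 108 and 108 CPM in Txnip-KO, against 134, 102 and 90.4 CPM in WT, in the class II gate cells, and 149.8, 153 and 104 CPM in Txnip-KO, against 79.5, 67.8 and 68.8 CPM in WT, in the other cells (-0.81 ± 0.14, adjusted p = 0.028). The remaining genes named by the rule were Camp, Ngp, S100a9 and S100a8, which vary widely in the other cells. Against Siglech cells 203 genes differed (1.82% of 11126), and against class II low Csf1r cells 6 (0.0564% of 10636).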

How the data were processed

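Single cells of 3 Txnip-KO and 3 WT bone marrow samples were profiled with 10x 3' chemistry. The authors deposited UMI counts per gene and barcode for each sample, for which the submitters' processing notes list Cell Ranger 6.1.1, Seurat 2.3.4 and CASAVA 1.8. The build and annotation behind them are stated in no source used here. Groups were read from the sample titles. Of 48277 deposited barcodes 44399 passed the cell filter. Libraries held 61368478 to 80688688 UMIs in Txnip-KO and 72152212 to 80876483 UMIs in WT, and replicates differed by more than sampling noise, with a chi-square per degree of freedom of 2.44 to 7.72.

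Counts were summed over the chosen cells of each sample and fitted with edgeR 4.0.16 in R 4.3.3 (filterByExpr, TMM, quasi-likelihood test, Benjamini-Hochberg threshold of 0.05 over all genes tested), with DESeq2 1.42.0 as an alternative. Genes of the cell rule were not tested in cells chosen by it. Interactions were fitted on 12 sums with the sample as a block, with TMM scaling over those 12 sums. Doublets were scored with a Scrublet-type method in scanpy 1.11.5, which marked 0.8% per 1000 barcodes in each sample; they stayed in, and their removal was an alternative, as were other class II thresholds, a stricter cell filter, thinning to 1000 UMIs and leaving out each replicate. Scripts ran in Python 3.11.15 (pandas 2.3.3, scipy 1.17.1, numpy 2.4.6 and matplotlib 3.10.9), and the fits were tested on simulated data.

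Of genes averaging 10 CPM or more without overlap between genotypes, the 12 largest rises and 12 largest falls were candidates for naming, beside up to 4 called members of each list with the smallest p, 8 fixed genes (Cd74, Ciita, Batf3, Irf8, Irf4, Zbtb46, Flt3 and Arrdc4) and 5 interaction genes each way; other genes named were chosen after their values were seen. The members and lists were chosen with earlier results of these data known. Shares of cells carry counting error only within a sample. Some genes are not reported here by name.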

Additional observations from a re-analysis of the deposited data

Results flagged for a closer look

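The genotype effect in the class II gate cells differed from that in the other cells kept for 7 named genes (edgeR interaction, as differences of log2 fold changes). For Camp, Ngp, S100a9 and S100a8, transcripts of neutrophils, the differences were 5.68, 5.04, 3.96 and 3.69. With doublets removed they were 1.45, 0.62, -0.24 and -0.99, and none of the 4 passed. For Lifr the difference was 2.92, past the threshold with each replicate left out except WT replicate 3. Against the class II low Csf1r cells it was 1.18 and not called (adjusted p = 0.41), with means of 22.0 CPM in Txnip-KO and 4.74 CPM in WT in those cells. For Spp1 it was -3.13, and it was not called against Siglech cells (0.13, adjusted p = 0.94) or class II low Csf1r cells (-0.097, adjusted p = 0.99). For Hlf it was -0.812, and it lost its call without Txnip-KO replicate 2 or any WT replicate.

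The genotype effect also differed between the Cd209a gate and the Kit and Cd34 gate for 9 genes. The differences of log2 fold changes were -3.49 for Aspm, -3.27 for Idi1, -2.22 for Mki67, -2.20 for Ube2c, -0.997 for Hmgb2 and -0.994 for Tmsb10. They were 0.829 for Pdcd4, 1.31 for Polr3gl and 3.22 for Fkbp5. Tmsb10 and Fkbp5 kept their calls with each replicate left out in turn, and the other 7 lost theirs in at least 1 of these fits.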

How the results depend on the processing

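The difference in the share of class II gate cells (Txnip-KO minus WT, in percentage points) was -0.0114, and 0.0404 with a class II threshold of 10, 0.460 with 3, 0.830 after thinning, 0.224 with the sum per 10000 UMIs, 0.0411 without doublets, 0.0967 with the stricter filter and -0.494 to 0.359 over left-out replicates. The difference in the Cd209a gate share was 12.69, and 3.003 after thinning. The Clec9a and monocyte gate shares turned to 0.686 and 0.734 after thinning, and the Kit and Cd34 share ran from -8.80 to 0.738 over left-out replicates. Genes changed in the class II gate cells numbered 1051, against 1625 with no filter, 1586 with equal cell numbers of each gate, 191 after thinning and 127 to 1768 over left-out replicates. Interaction genes against the other cells numbered 48, against 203 for Siglech cells, 6 for Csf1r cells, 159 with a threshold of 10, 74 without doublets, 289 with no filter and 7 to 330 over left-out replicates; between gates they numbered 9, with 2 to 64. The Cd209a gate had 977, with 552 by DESeq2's Wald test and 416 to 1003; the Kit and Cd34 gate 786, with 361 and 222 to 946; Cd209a cells chosen without class II 1474, with 841 and 543 to 1576. The labels do not say whether replicate numbers pair the samples. Same-numbered samples had correlations of -0.166, -0.0456 and 0.0626 over 10205 genes, and other pairs -0.214 to 0.23. These values cannot settle the pairing, because the mix of gates also varied between samples. The replicate block gave 507 genes in the class II gate cells, 245 higher and 262 lower. Within the gates it gave more calls than without it. The Cd209a gate had 471 higher and 574 lower, against 431 and 546, and the Kit and Cd34 gate 442 and 440, against 401 and 385. Some single genes changed sign. Against their direction in all class II gate cells, Eno1 (-0.0095), Cd74 (-0.44) and Ciita (-1.60, called) turned in the Kit and Cd34 gate, Irf8 there (0.010), in the Cd209a gate (0.18) and with equal cell numbers (0.027), where Irf4 turned too (-0.056). Batf3 turned after thinning (0.12), and Irf4 and Zbtb46 without Txnip-KO replicate 1, with ranges of -0.0083 to 0.652 and -0.159 to 0.354. H2-Ab1 in Cd209a cells chosen without class II ran from -0.0031 without Txnip-KO replicate 2 to 0.276. Within the Kit and Cd34 gate Eno1 turned under the replicate block (0.025) and ran from -0.140 to 0.082 over left-out replicates, and Ccnb2 from -0.186 to 0.216. The interactions of S100a9 (-0.24) and S100a8 (-0.99) turned without doublets, and that of Spp1 against Siglech cells (0.13). The causes were not tested. Few transcripts per sample limit genes such as Ciita and Idi1.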
